A study of Mus musculus with 4 samples.

Results

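The 9 genes described here encode matricellular and adhesive proteins of the dermal matrix: fibronectin (*Fn1*), versican (*Vcan*), tenascin C (*Tnc*), tenascin X (*Tnxb*), periostin (*Postn*), *Sparc*, thrombospondins 1 and 2 (*Thbs1*, *Thbs2*) and osteopontin (*Spp1*). They were chosen by function as a set of known matrix genes, though with earlier results of these data known. Every probe set that the platform annotation assigns to one of them alone was used. The annotation listed such probe sets for 8 of the 9 genes, out of 18193 genes in all. It listed none for *Spp1*, which was therefore not analysed here. The 8 genes had 22 of the 45101 probe sets of the array, of which 18 were called present on at least 1 array and 13 on all 4. A further probe set, listed for both *Pald1* and *Thbs1*, was left out because its signal could not be given to either gene.

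Dermal cells of 10-week-old female C57BL/6 mice were profiled in 4 conditions, with 1 Affymetrix array for each. They came from the ventral skin of virgin mice and from the dorsal and the ventral skin of mice at 15 days post-coitus (dpc), all injected with the vehicle DMSO, and from ventral skin at 15 dpc injected with PP2, an inhibitor of Src family kinases. Their short names, in that order, are virgin, dorsal, abdominal and PP2. Each mouse was injected into the dermis for 4 days, 2 times daily, and in pregnancy the injections began at 12 dpc. The sample titles give 15 dpc and the sample descriptions 16 dpc. No array came from virgin dorsal skin or from virgin or dorsal skin given PP2. The sources used here do not say whether RNA of several mice was pooled for an array. With 1 array per condition, no error and no p-value can be attached to a difference, and animal, pregnancy, site and drug cannot be told apart from the array that carried them.

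Matricellular proteins are secreted into the matrix and tune how cells hold on to it, while fibrillar proteins such as collagens carry the load. Fibronectin and versican form much of the provisional matrix of growing or healing tissue, tenascin C and the thrombospondins weaken or reshape focal adhesions, and tenascin X keeps collagen fibrils spaced and bound in mature skin. Cells sense these proteins mainly through integrins, with syndecans, CD36, CD44 and CD47 as further receptors, and Src kinases act just inside the membrane at integrin adhesions. The dermis was digested with collagenases and hyaluronidase before RNA was extracted, so the arrays measured transcripts of released cells and not the protein in the matrix. In such a bulk sample, fewer cells of a type and less RNA per cell cannot be told apart.

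The genes whose brightest probe set differed by more than 2-fold between the abdominal array and another were *Fn1*, *Vcan*, *Tnc*, *Tnxb* and *Thbs2*. The start site regions of 4 of them are printed here, as RefSeq gives them on the GRCm38.p6 build, from 250 bases before to 50 after an annotated start site. RefSeq windows matched 6 of the 8 measured genes. Capitals mark a match on either strand to a TATA box (TATAAA) or an AP-1 motif (TGANTCA). A TEAD motif (CATTCC) was also searched on both strands, and no matches overlapped.
*Tnc*, chr4:64046966-64047265, minus strand: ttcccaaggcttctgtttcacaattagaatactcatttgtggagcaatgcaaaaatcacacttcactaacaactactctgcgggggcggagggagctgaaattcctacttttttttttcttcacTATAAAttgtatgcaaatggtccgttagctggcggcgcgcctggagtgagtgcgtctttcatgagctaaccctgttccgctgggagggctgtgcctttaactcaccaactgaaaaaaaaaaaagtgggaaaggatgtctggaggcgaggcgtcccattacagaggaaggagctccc
*Tnxb*, chr17:34670285-34670584, plus strand: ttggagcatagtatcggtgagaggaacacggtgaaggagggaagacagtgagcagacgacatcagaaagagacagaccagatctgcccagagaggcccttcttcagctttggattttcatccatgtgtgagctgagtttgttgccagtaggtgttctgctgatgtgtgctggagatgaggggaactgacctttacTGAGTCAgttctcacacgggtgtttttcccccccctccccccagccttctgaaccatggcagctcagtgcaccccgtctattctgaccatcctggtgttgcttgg
*Thbs2*, chr17:14694213-14694512, minus strand: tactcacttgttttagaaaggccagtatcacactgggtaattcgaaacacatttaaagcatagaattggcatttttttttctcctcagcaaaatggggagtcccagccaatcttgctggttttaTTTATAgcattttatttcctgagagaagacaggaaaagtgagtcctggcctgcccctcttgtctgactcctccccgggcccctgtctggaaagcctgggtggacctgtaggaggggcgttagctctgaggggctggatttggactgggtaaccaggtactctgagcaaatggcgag
*Vcan*, chr13:89742463-89742762, minus strand: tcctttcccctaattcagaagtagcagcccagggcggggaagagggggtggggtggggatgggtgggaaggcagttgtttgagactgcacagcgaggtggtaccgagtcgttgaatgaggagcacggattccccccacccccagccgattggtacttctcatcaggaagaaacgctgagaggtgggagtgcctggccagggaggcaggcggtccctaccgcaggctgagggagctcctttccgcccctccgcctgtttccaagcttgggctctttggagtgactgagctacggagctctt

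The *Tnc* window held TATAAA with its first base 126 bases before the start site. The *Thbs2* window held the same motif in reverse, as TTTATA, also beginning at 126 bases before the start site. The *Tnxb* window held the AP-1 letters TGAGTCA at 55 bases before the start site. The *Vcan* window held none of the 3 motifs and was the richest of the 4 in G and C, at 61% against a median of 52.7% over all windows. A second *Tnc* window, for another annotated start site, contained the same TATAAA, there at 205 bases before the start. Only the exact letters were searched. That window also held tatataag, nearer to its start site, which the letters TATAAA do not match and the search did not count. Among 32851 windows of the same length, 13.6% held the TATA letters, 7.81% the AP-1 letters and 14.7% the TEAD letters. A match of letters is a description and not a bound site.

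Values are MAS5 signals, an intensity in arbitrary units that the software summarises over the probes of a probe set, with a detection call of present, marginal or absent. Signals of different probe sets depend on their probes and were not read as relative amounts of transcript. They were ranked to choose a probe set for each gene and to name the brightest marker of some lists. A sum of marker signals is weighted towards its brightest probe sets. A probe set was counted as higher or lower when its ratio was above 2, the fold the study used, with a present call on the brighter array. If the dimmer of the arrays was not called present, the fold is a lower bound and is written "at least". Each gene is represented by its brightest probe set, by mean log2 signal over the 4 arrays.

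The genes that passed by their brightest probe set did not share a pattern. Against the virgin array, 0 of the 18 tested member probe sets were higher on the abdominal array and 3 were lower, where 3.38% and 5.96% of all 28343 tested probe sets were. Against the PP2 array, 2 of 17 were higher and 3 lower, where 8.23% and 3.51% of 28698 were. Against the dorsal array, 5 of 18 were higher and 1 lower, where 5.12% and 8.41% of 28622 were. The probe sets of a gene share its transcript, so these counts are not independent. By representative probe set, 0 genes were higher and 1 lower against the virgin array, 1 was higher and 2 lower against PP2, and 3 were higher and 0 lower against dorsal skin.

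The median log2 ratio of the member probe sets was -0.03 against the virgin array, 0.12 against PP2 and 0.22 against dorsal skin, beside -0.01, 0.07 and -0.03 over all tested probe sets. Without regard to sign, the median size of the log2 ratio was 0.52, 0.65 and 0.76 for the members and 0.30, 0.33 and 0.37 for all. These are descriptions of 1 array against another. Rescaling the arrays to one median moved the median ratio of abdominal over PP2, over probe sets present on both, from 0.05 to -0.06 on the log2 scale, so a ratio of that size has no settled direction.

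**Figure D1:**
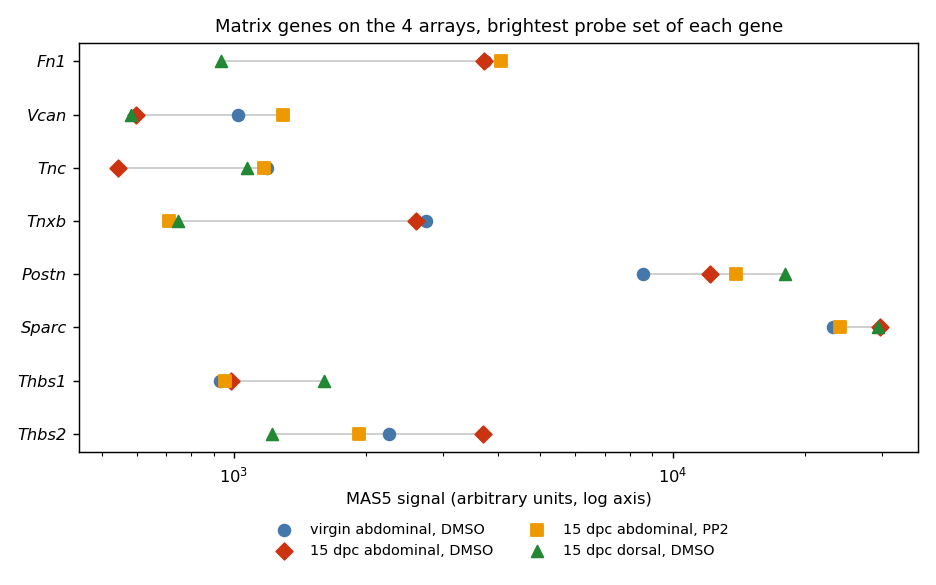
MAS5 signal (log axis, arbitrary units) of the representative probe set of each of the 8 measured genes, with 1 point for each array and no error since each condition had 1 array. *Fn1* is low on the dorsal array, *Tnc* on the abdominal array and *Tnxb* on the PP2 and dorsal arrays, while *Thbs2* is highest on the abdominal array. Points can be compared along a row and not between rows.

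*Fn1*, which encodes the main adhesive glycoprotein that integrins assemble into fibrils, was even across the 3 arrays of ventral skin and low on the dorsal one. Its representative probe set (1426642_at) had signals of 3743 on the virgin, 3719.6 on the abdominal, 4069 on the PP2 and 933 on the dorsal array. The abdominal signal was 3.98-fold higher than the dorsal, and the virgin and PP2 signals were 4.01-fold and 4.36-fold higher than the dorsal. Between the abdominal and virgin arrays the log2 ratio was -0.01, and it turned to 0.03 with arrays scaled to one median. Against PP2 it was -0.13. Of the 1964 probe sets present on both the abdominal and dorsal arrays whose mean log2 signal lay within 0.5 of this one, 0.866% were at least as far apart, a share that includes real differences and is no p-value.

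A dimmer *Fn1* probe set (1437218_at) was likewise lowest on the dorsal array. Its signals were 201 (virgin), 181 (abdominal) and 167 (PP2), all present, and 96.8 on the dorsal array, where it was called absent. The abdominal signal was at least 1.87-fold higher than the dorsal, just under the threshold, and the virgin signal at least 2.08-fold higher. The summed signal of 10 fibroblast markers was 144528 on the abdominal, 162202 on the virgin, 133546 on the PP2 and 129555 on the dorsal array, and all 10 were present on every array. *Col1a1*, *Dpt* and *Lum* among them were more than 2-fold higher on the abdominal than on the dorsal array, while *Col6a1*, *Pdgfra*, *Vim* and *Thy1* were lower on the abdominal one by less than 2-fold, and the median log2 ratio of the 10 was 0.22. The part of fibroblast content in the *Fn1* difference was not tested.

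*Vcan*, which encodes the hyaluronan-binding proteoglycan of loose and provisional matrix, was higher on the PP2 array than on the abdominal one. Its representative probe set (1427256_at) had signals of 1024 on the virgin, 597.5 on the abdominal, 1292 on the PP2 and 583 on the dorsal array. The virgin and PP2 arrays were high and the abdominal and dorsal arrays low and nearly equal. The PP2 signal was 2.16-fold higher than the abdominal, and 4.40% of 4428 probe sets of like signal were at least as far apart. The virgin signal was 1.71-fold higher than the abdominal, under the threshold, and the log2 ratio of abdominal over dorsal was 0.03.

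The other *Vcan* probe sets agreed only in part. One (1421694_a_at) had signals of 519, 415 and 653 on the virgin, abdominal and PP2 arrays and 334 on the dorsal array, called absent there. Its PP2 signal was 1.57-fold higher than the abdominal. Another (1427257_at) ran the other way against PP2, with 373 on the abdominal array (absent) and 263 on the PP2 array (marginal), beside 522 on the virgin and 295 on the dorsal array. A dim one (1433044_at) had 69.3 on the virgin, 28.2 (marginal) on the abdominal, 23.5 on the PP2 and 49.6 on the dorsal array, at least 2.46-fold higher on the virgin than on the abdominal array. The median log2 ratio of abdominal over PP2 over the *Vcan* probe sets present on either array was -0.65, under the threshold. The remaining 4 probe sets were absent on every array, with signals up to 48.1. Which *Vcan* transcripts each probe set reads was not analysed here, so a difference between splice forms and one between probes cannot be told apart.

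*Tnc*, which encodes the tenascin induced in wounds, around hair follicles and under tension, was lower on the abdominal array than on each of the other 3. Its representative probe set (1416342_at) had signals of 1192 on the virgin, 543 on the abdominal, 1173 on the PP2 and 1072 on the dorsal array. The 3 other arrays lay within 1.11-fold of each other. The virgin signal was 2.19-fold and the PP2 signal 2.16-fold higher than the abdominal, and 3.0% of 4163 and 4.54% of 4167 probe sets of like signal were at least as far apart. The dorsal signal was 1.97-fold higher, with a log2 ratio of abdominal over dorsal of -0.98 that passed the threshold only after quantile normalization.

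The second *Tnc* probe set (1456344_at) gave the same picture at lower signal. It had 123 on the virgin, 167 on the PP2 and 138.5 on the dorsal array, all present, and 46.5 on the abdominal array, where it was absent. The virgin, PP2 and dorsal signals were at least 2.65-fold, 3.60-fold and 2.98-fold higher than the abdominal. Both *Tnc* probe sets therefore placed the abdominal array lowest. The summed signal of 9 detected dermal papilla markers, the papilla being the follicle mesenchyme, was lowest there too, at 8906 against 26879 on the virgin, 21069.8 on the PP2 and 12841 on the dorsal array, while that of 10 hair keratin and growing hair genes was highest, at 16105 against 646, 2173 and 818. Among the dermal papilla markers, 1 was higher and 5 were lower on the abdominal than on the virgin array. Of all tested probe sets, 3.38% and 5.96% were. Against PP2 0 were higher and 5 lower, beside 8.23% and 3.51%. Against dorsal skin 0 were higher and 4 lower, beside 5.12% and 8.41%. *Crabp1*, the brightest of these markers, *Notum*, *Rspo3* and *Sox18* were lowest on the dorsal array, and *Corin* and *Sox18* were highest on the abdominal one. The median log2 ratio of the 9 markers was -1.16 against the virgin array, -1.29 against PP2 and 0.17 against dorsal skin. Against dorsal skin the sum and the median thus differed in direction. The part of hair follicle stage and of papilla cells in the *Tnc* and *Vcan* values was not tested.

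*Tnxb*, which encodes the collagen-binding tenascin whose human loss causes a form of Ehlers-Danlos syndrome, separated the arrays into a pair with high and a pair with low signal. Its only probe set (1450798_at) had signals of 2739.9 on the virgin, 2604 on the abdominal, 713 on the PP2 and 746 on the dorsal array. The abdominal signal was 3.65-fold higher than the PP2 and 3.49-fold higher than the dorsal. The virgin signal was 3.84-fold and 3.68-fold higher than those. Within the pairs, the virgin signal was 1.05-fold higher than the abdominal, and the dorsal 1.05-fold higher than the PP2, an order that turned with arrays scaled to one median. At like signal, 0.567% of 3351 probe sets were as far apart between the abdominal and PP2 arrays and 1.67% of 3351 between the abdominal and dorsal arrays.

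Most markers of tendon and fascia were low on the pair of arrays where *Tnxb* was high. The summed signal of the 9 detected markers of the 10 listed was 9483 on the virgin and 9311 on the abdominal array, against 32249 on the PP2 and 36551 on the dorsal array. Of these markers, *Cilp*, *Col12a1*, *Fmod*, *Kera*, *Mkx*, *Prg4* and *Tnmd* were more than 2-fold higher on the PP2 array than on the abdominal one, and the same 7 were on the dorsal array, where the call of *Cilp* was lost under both other scalings. The other detected markers did not share this split. *Prg4*, although lowest on the abdominal array, and *Scx* were highest on the virgin array, and *Thbs4* was at least 3.50-fold higher on the abdominal than on the dorsal array. Of 5 Schwann cell markers, *Cdh19*, *Ngfr*, *S100b* and *Sox10* were 4.10-fold, 2.54-fold, 2.82-fold and 3.66-fold higher on the dorsal than on the abdominal array, and *Cdh19* and *S100b* were 3.57-fold and 2.37-fold higher on the PP2 array. Thus 4 of the 5 Schwann cell markers passed as lower on the abdominal array against dorsal skin and 2 against PP2, beside the same shares of 8.41% and 3.51%. *Mbp*, the brightest of them, had 27387 on the virgin, 26896 on the abdominal, 18580.0 on the PP2 and 25472 on the dorsal array. The part of fascia, tendon or Schwann cells in the *Tnxb* difference was not tested. The 3'/5' signal ratio of the *Gapdh* control probes, which rises as RNA degrades, was 2.51 on the virgin, 1.41 on the abdominal, 5.84 on the PP2 and 2.97 on the dorsal array. The same ratio of the actin probes was 2.64, 2.03, 2.70 and 4.14. By both controls the abdominal array was thus lowest and the virgin array next, the pair where *Tnxb* was high. By actin the virgin and PP2 arrays were close. The PP2 array was highest by *Gapdh* and the dorsal array highest by actin. The part of RNA quality in the values of the members was not tested.

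**Figure D2:**
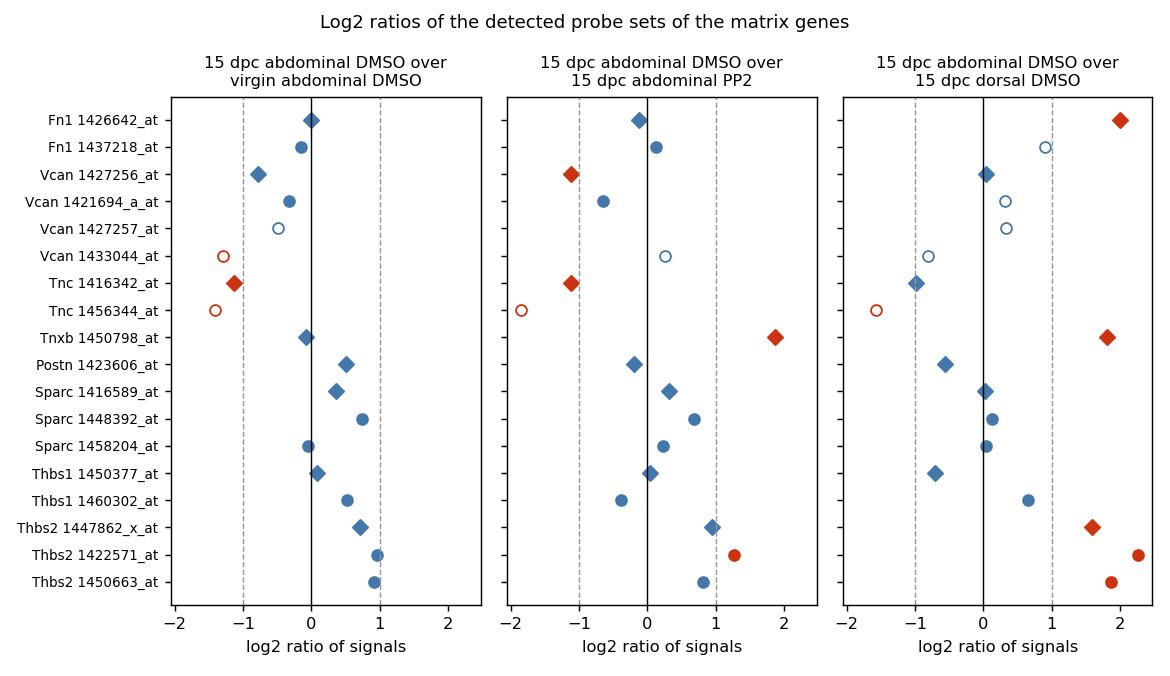
Log2 ratios of the 18 probe sets present on at least 1 array, with the abdominal array divided by the virgin array in the left panel, the PP2 array in the middle and the dorsal array on the right, diamonds marking the representative probe set of each gene and dashed lines a ratio of 2. Red points passed the 2-fold rule, blue points did not, and open points lack a present call on 1 of the 2 arrays. Both *Tnc* probe sets lie left of 0 in every panel, all 3 *Thbs2* probe sets lie right of it, and the representative *Fn1* and the *Tnxb* probe sets lie far right against dorsal skin.

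*Thbs2*, which encodes the thrombospondin that binds matrix metalloproteinase 2 and restrains vessel growth, was highest on the abdominal array by all 3 of its probe sets and lowest on the dorsal one. The representative probe set (1447862_x_at) had signals of 2254 on the virgin, 3691 on the abdominal, 1924 on the PP2 and 1222.5 on the dorsal array. Its suffix x marks probes that can match other transcripts. The second (1422571_at) had 1631, 3169, 1311.5 and 658.5 in the same order, and the last (1450663_at) 1684, 3164, 1808 and 870.3. All were present on all 4 arrays.

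The abdominal signal of *Thbs2* was 3.02-fold, 4.81-fold and 3.64-fold higher than the dorsal by these 3 probe sets. Against PP2 it was 1.92-fold, 2.42-fold and 1.75-fold higher, so that 1 of the 3 passed the threshold. Against the virgin array it was 1.64-fold, 1.94-fold and 1.88-fold higher and 0 of 3 passed, although the second passed with arrays scaled to one median. For the representative probe set, 2.0% of 2445 probe sets of like signal were as far apart between the abdominal and dorsal arrays, 5.24% between abdominal and PP2, and 7.57% between abdominal and virgin. Among 5 detected adipocyte markers, *Adipoq* and *Car3* were likewise highest on the abdominal and lowest on the dorsal array, at 850.5 and 168 for *Adipoq*. *Lpl* was highest on PP2, *Fabp4* lowest on PP2 and *Pparg* lowest on the virgin array. *Adipoq*, *Car3*, *Lpl* and *Pparg* passed as higher on the abdominal than on the dorsal array. Thus 4 of the 5 were higher and 0 lower, beside 5.12% and 8.41% of all tested probe sets. In each of the other comparisons, 2 were higher and 0 lower. The summed signal of the 5 was 37922.5 on the virgin, 51582 on the abdominal, 30842 on the PP2 and 28591 on the dorsal array. Of 9 detected smooth muscle and pericyte markers, *Acta2*, *Myh11* and *Tagln*, genes of the contractile apparatus, had abdominal signals above the dorsal ones by 2.17-fold, 3.32-fold and 2.62-fold, whereas for *Cspg4*, a pericyte proteoglycan, the dorsal signal was 2.89-fold above the abdominal. The summed signal of these 9 was 50765 on the virgin, 54443 on the abdominal, 38959 on the PP2 and 38387 on the dorsal array. The part of these cells in the *Thbs2* values was not tested.

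*Thbs1*, the thrombospondin that releases latent TGF-β from its carrier in cell culture, passed in none of the 3 comparisons, and its probe sets disagreed about dorsal skin. The representative one (1450377_at) had signals of 928 on the virgin, 983 on the abdominal, 957 on the PP2 and 1608 on the dorsal array, the dorsal being 1.64-fold higher than the abdominal. The other (1460302_at) had 644, 926, 1212 and 590.5, the abdominal being 1.57-fold higher than the dorsal. The representative log2 ratio of abdominal over PP2 was 0.04 and turned to -0.07 with arrays scaled to one median. The direction of *Thbs1* between the abdomen and the back was thus not settled by these arrays.

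*Postn*, which encodes a collagen-associated protein made by fibroblasts in remodelling tissue, was lowest on the virgin array and, in the deposited signals, highest on the dorsal one. Its only probe set (1423606_at) had signals of 8546 on the virgin, 12185 on the abdominal, 13951 on the PP2 and 18038 on the dorsal array. The 3 arrays from pregnant mice were all above the virgin array. The abdominal signal was 1.43-fold higher than the virgin, and the PP2 and dorsal signals 1.14-fold and 1.48-fold higher than the abdominal, each under the threshold. With quantile normalization the log2 ratio of abdominal over PP2 was -0.38 and that of abdominal over dorsal -0.35, which placed the PP2 array highest. The dorsal signal was 2.11-fold higher than the virgin, a contrast of both site and pregnancy. At like signal, 11.9% of 353 probe sets were as far apart between the abdominal and virgin arrays.

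*Sparc*, the secreted calcium-binding protein that assists collagen folding and assembly, passed in none of the 3 comparisons. Its representative probe set (1416589_at) had signals of 23236 on the virgin, 29760.0 on the abdominal, 24027 on the PP2 and 29380 on the dorsal array, a range of 1.28-fold. A second (1448392_at) had 7799, 12974, 8092 and 11868, with the abdominal signal 1.66-fold higher than the virgin and 1.60-fold higher than the PP2. In both, the abdominal and dorsal arrays were above the virgin and PP2 arrays. With quantile normalization the representative log2 ratio of abdominal over PP2 went from 0.31 to 0.00 and that of abdominal over dorsal from 0.02 to 0.41, so this order was not kept for it. The remaining, dim probe set (1458204_at) stayed between 116 and 141.

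Among 17 genes for receptors of these proteins, 16 were detected. Against the virgin array 1 was higher on the abdominal array and 1 lower, beside shares of 3.38% and 5.96% of all tested probe sets. Against PP2 2 were higher and 1 lower, beside 8.23% and 3.51%, and against dorsal skin 2 were higher and 0 lower, beside 5.12% and 8.41%. Their median log2 ratios were 0.05, 0.31 and -0.09. *Itga5*, the α subunit of the main fibronectin receptor, had signals of 276 on the virgin, 128 on the abdominal, 267 on the PP2 and 232 on the dorsal array. It was 2.15-fold higher on the virgin and 2.08-fold higher on the PP2 than on the abdominal array, so that its low array was that of *Tnc* and not that of *Fn1*.

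*Cd36*, a receptor for thrombospondins that adipocytes and endothelial cells also carry, had 6303 on the virgin, 13722 on the abdominal, 7815 on the PP2 and 9041 on the dorsal array. It was 2.18-fold higher on the abdominal than on the virgin array, and both of its other probe sets passed in the same direction. *Itgb1*, the β subunit shared by the fibronectin receptor and many others, had 1389, 2223, 966 and 1279 in that order and was 2.30-fold higher on the abdominal than on the PP2 array. Of its 4 other probe sets, 3 had the same direction and 2 passed. *Itga9*, whose product binds tenascin C and osteopontin, was 2.10-fold higher than on the PP2 array, a call lost under both other scalings. Its other probe set did not pass, at a log2 ratio of 0.19. *Itga8* and *Stab1* were 2.21-fold and 2.08-fold higher on the abdominal than on the dorsal array.

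The genes for enzymes and proteins that work with hyaluronan or versican gave lower values on the abdominal array in 2 comparisons. Of 12 listed, 9 were detected. Against the virgin array 0 were higher and 3 lower (3.38% and 5.96% of all tested probe sets), against PP2 1 was higher and 5 lower (8.23% and 3.51%), and against dorsal skin 1 was higher and 1 lower (5.12% and 8.41%). Their median log2 ratios were -0.41, -1.19 and -0.17, beside the -0.01, 0.07 and -0.03 of all tested probe sets.

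*Hapln1*, the link protein that locks versican on to hyaluronan, was absent on the abdominal array at 39.5 and present on the other 3, at 223 on the virgin, 346 on the PP2 and 337 on the dorsal array. These were at least 5.64-fold, 8.77-fold and 8.54-fold higher. Its other probe sets had the same direction with smaller differences, at log2 ratios of -1.23 and -0.60 against the virgin array, -1.78 and -0.71 against PP2 and -0.78 against dorsal skin. *Tnfaip6*, which moves heavy chains on to hyaluronan in inflammation and ovulation, had 2284 on the virgin, 561.5 on the abdominal, 2122 on the PP2 and 403 on the dorsal array. The virgin and PP2 signals were 4.07-fold and 3.78-fold higher than the abdominal, the same split of the arrays as for the representative *Vcan* probe set.

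*Adamts4*, a protease that cuts versican, had 429 on the virgin, 322 on the abdominal, 1402 on the PP2 and 568 on the dorsal array and was 4.36-fold higher on the PP2 than on the abdominal array. Its other probe set did not pass, at a log2 ratio of -0.97. *Adamts9*, a protease of the same group, was 2.35-fold higher there by its representative probe set and did not pass by the other 2, at -0.76 and -0.13. *Adamts1* passed in the same direction. Of the hyaluronan synthases, *Has1* was absent on the abdominal array at 153, against 836 on the virgin array, at least 5.46-fold higher. *Has2* was 2.05-fold higher on the abdominal than on the dorsal array, and its other probe set did not pass, at a log2 ratio of 0.90. The 1 gene higher on the abdominal than on the PP2 array was *Has3*, a call lost under both other scalings.

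**Figure D3:**
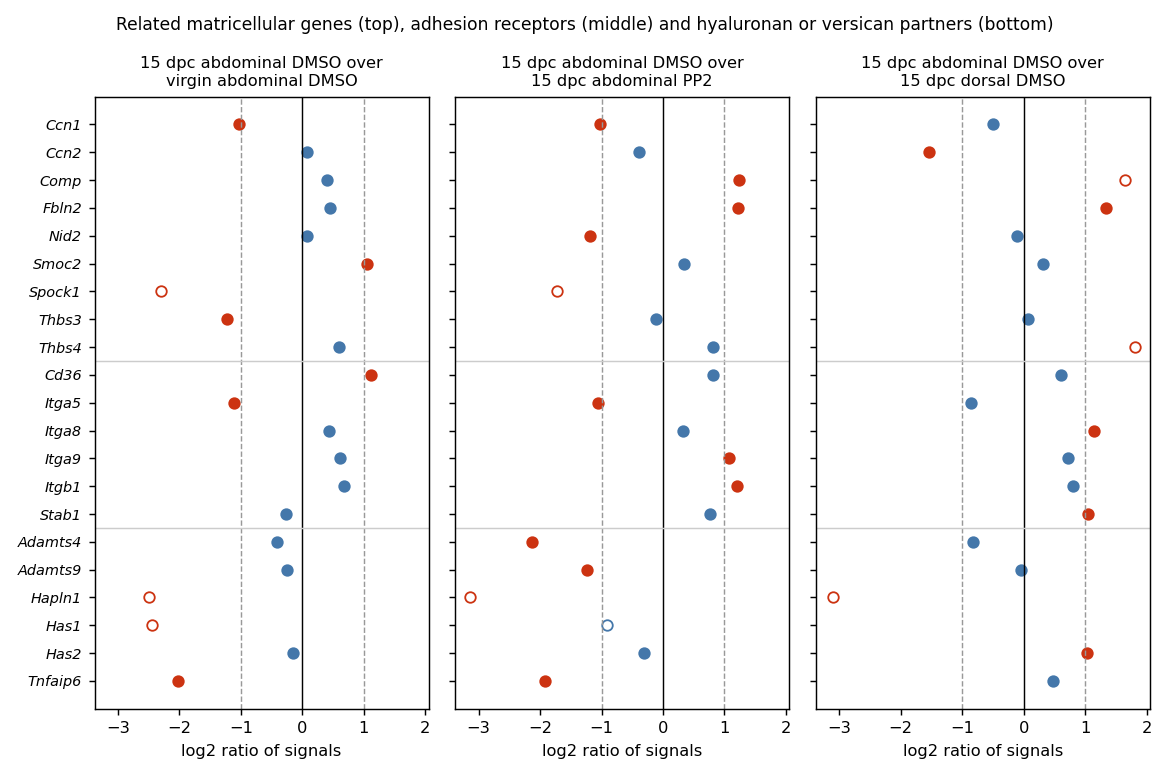
Log2 ratios of the representative probe sets of the related genes chosen by size of ratio, at most 4 per list and comparison, the abdominal array being divided by the virgin array in the left panel, the PP2 array in the middle and the dorsal array on the right, with dashed lines at a ratio of 2, red points past the 2-fold rule, blue points not past it and open points without a present call on 1 of the 2 arrays. Genes named only to complete a count are not plotted, among them *Has3*, which was higher on the abdominal than on the PP2 array. The plotted hyaluronan and versican partners lie left of 0 against PP2, with *Hapln1* farthest left in all 3 panels.

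Other genes of the matricellular families were spread in both directions. Of 22 listed, 21 were detected. Against the virgin array 1 was higher and 3 were lower, beside the 3.38% and 5.96% of all tested probe sets. Against PP2 3 were higher and 4 lower, beside 8.23% and 3.51%, and against dorsal skin 5 were higher and 2 lower, beside 5.12% and 8.41%. Their median log2 ratios were 0.08, 0.00 and 0.07.

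*Ccn2*, encoding connective tissue growth factor, was 2.89-fold higher on the dorsal than on the abdominal array, with signals of 2639 on the virgin, 2791 on the abdominal, 3641 on the PP2 and 8069 on the dorsal array. *Ccn1*, encoding its integrin-binding relative, had 11978, 5863, 11863 and 8241 and was 2.04-fold higher on the virgin than on the abdominal array, a call lost under both other scalings. *Ccn1* was also 2.02-fold higher on the PP2 than on the abdominal array, and this call held under both other scalings. *Spock1*, encoding a testican related to *Sparc*, was absent on the abdominal array at 59.2, and was at least 4.93-fold higher on the virgin and 3.30-fold higher on the PP2 array. *Smoc2*, encoding another relative of *Sparc*, was 2.08-fold higher on the abdominal than on the virgin array. Its other probe set did not pass, at a log2 ratio of 0.64.

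The other thrombospondins did not follow *Thbs2* as a group. *Thbs3* was 2.34-fold higher on the virgin than on the abdominal array. *Thbs4* had 202 on the virgin, 305 on the abdominal, 173 on the PP2 and 87.3 (absent) on the dorsal array, and was at least 3.50-fold higher on the abdominal than on the dorsal array. *Comp*, the fifth member of the family, had 142, 187 and 79.3 and an absent 59.5 in that order, 2.35-fold higher on the abdominal than on the PP2 array and at least 3.14-fold higher than on the dorsal. These 2 genes, like *Thbs2*, were highest on the abdominal array and lowest on the dorsal one, although the call of *Comp* against PP2 was lost with quantile normalization.

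*Fbln2*, encoding an elastic fibre protein that binds fibronectin and versican, was 2.33-fold and 2.53-fold higher on the abdominal than on the PP2 and dorsal arrays by its representative probe set. Its other probe set had log2 ratios of -0.66 and -0.23, the opposite direction. *Nid2*, a basement membrane linker, was 2.27-fold higher on the PP2 than on the abdominal array. *Ccn3* passed as lower on the abdominal than on the PP2 and dorsal arrays, *Tgfbi* as higher than on PP2, and *Ccn5* and *Fbln1* as higher than on dorsal skin. The call of *Tgfbi* was lost with arrays scaled to one median.

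The genes whose profile lay closest to a member were found by the largest absolute difference, over the 4 arrays, between log2 signals centred on their mean, among 11086 genes present on all 4. For *Tnc* they were *Dpysl4* at 0.04, *Phf13* at 0.06 and the receptor gene *Itga5* at 0.08. For *Vcan* they were *Frem1* at 0.06, *Vegfa* at 0.07 and 1810055G02Rik at 0.09. The nearest to *Thbs2* were *Cenpe* at 0.10, *Miat* at 0.12 and *Cyp2f2* at 0.13, and those nearest to *Fn1* were *Rdh11* at 0.11, *Tlcd2* at 0.13 and *Acoxl* at 0.14.

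*Postn* lay closest to 4933439C10Rik at 0.06, *Mxi1* at 0.07 and *Art3* at 0.08. The profile of *Tnxb* had fewer close matches, with *Aebp1*, which encodes a collagen-binding protein also linked to Ehlers-Danlos syndrome in humans, at 0.19, *Prox1* at 0.33 and *Pamr1* at 0.50. *Aebp1* had signals of 1566 on the virgin, 1354 on the abdominal, 476 on the PP2 and 442 on the dorsal array. With 4 arrays and this many genes, close profiles are a description only.

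**Figure D4:**
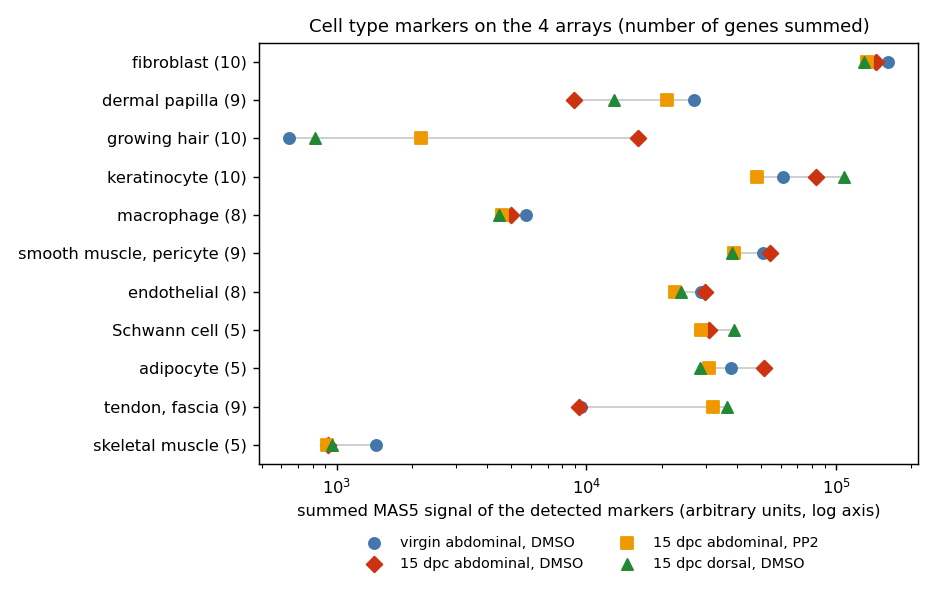
Summed MAS5 signal (log axis, arbitrary units) of the detected markers of each cell type on the 4 arrays, with the number of genes summed in parentheses. Growing hair genes are highest on the abdominal array, tendon and fascia genes are low on the virgin and abdominal arrays, and fibroblast genes differ least in proportion between the arrays.

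Marker signals of other cell types also differed between arrays. Fibroblast markers were present throughout, but so were 9 to 10 of the 10 keratinocyte markers, whose sum was 61556 on the virgin, 83250 on the abdominal, 48104 on the PP2 and 107581 on the dorsal array. The sums of 8 macrophage markers lay between 4485 and 5734, and those of 8 endothelial markers between 22540 and 29854. *Adgre1*, *Cd163*, *Csf1r* and *Mrc1* among the macrophage markers were more than 2-fold higher on the abdominal than on the dorsal array. Thus 4 of the 8 were higher and 0 lower, beside 5.12% and 8.41% of all tested probe sets. The median log2 ratio of the 8 was 1.02. *Lyz2*, the brightest of them, ran the other way and was 1.60-fold higher on the dorsal array. Skeletal muscle markers summed to between 917 and 1435, and 3 of 8 were not detected. From 58.4% to 59.7% of probe sets were present on an array, and log2 signals of the arrays correlated at r from 0.925 to 0.937.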

How the data were processed

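RNA of dermal cells was hybridised to 1 Affymetrix array for each of 4 conditions. The authors' software, Affymetrix Expression Console version 1 per the labels, made the deposited values: for each of 45101 probe sets a MAS5 signal, which is a linear intensity, with its call of present, marginal or absent. MAS5 brings each array to a common trimmed mean, so a signal is relative to the rest of its array. Between the joint table and the tables of each array, 0 probe sets differed in signal by more than 0.1%, and 0 columns lacked a sample. The signals were used as deposited. Arrays have no read depth, and their number limits the precision.

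Genes were named through the platform annotation, from the 34945 probe sets with 1 symbol. Another 932 had several and named no gene. Entrez identifiers matched GRCm38.p6 for 34741 and changed 0 symbols. Counts were taken for 3 comparisons, each of the abdominal array with another array. For the members, ratios between the other arrays were also taken. A ratio above 2 with a present call on the brighter array was counted, over probe sets present on either array. For a bound, the dim array was set to the higher of its own signal and its dimmest present signal. The representative probe set had the highest mean log2 signal. From each related list, at most 4 passing genes per comparison were named by the size of their ratio, and 3 close profiles for each member ranging over 2-fold. Genes beyond these were named to complete a count, after their values were seen. The members, lists and rules were chosen with earlier results of these data known. Python 3.11.15, pandas 2.3.3, NumPy 2.4.6 and Matplotlib 3.10.9 were used, and the counting rule was tested on simulated data. The alternatives were arrays scaled to one median, quantile normalization, no detection filter, a ratio of 1.5, and the median of the probe sets of a gene.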

Additional observations from a re-analysis of the deposited data

How the results depend on the processing

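Of 72 log2 ratios of members recomputed under an alternative, 45 stayed within 0.1, 27 moved further and 0 called ones reversed. The counts of member probe sets were more sensitive. Against the virgin array, the 0 higher became 1 with arrays scaled to one median, 1 with no detection filter and 4 at a ratio above 1.5, and the 3 lower became 5 with no detection filter. Against PP2, the 2 higher became 4 with no detection filter and 5 at 1.5. Against dorsal skin, the 1 lower became 2 with quantile normalization, 2 with no detection filter and 4 at 1.5. The probe set that gained a call with arrays scaled to one median was a *Thbs2* one, and with quantile normalization the representative *Tnc* one. Quantile normalization also brought the dimmer *Fn1* probe set past the threshold against dorsal skin. More calls follow by construction where the filter or the fold is relaxed. No paired analysis was possible because each condition had 1 array and the labels give no replicate numbers, and leaving out an array removes every comparison that uses it. The 2-fold calls of *Tnc* against the virgin and PP2 arrays, of *Vcan* and *Tnxb* against PP2 and of *Fn1*, *Tnxb* and *Thbs2* against dorsal skin held under both other scalings. With the median of a gene's probe sets present on either array, the log2 ratio of *Vcan*, abdominal over PP2, went from -1.11 to -0.65, which ended that call, *Tnc* against dorsal skin went from -0.98 to -1.28, past the threshold, and *Thbs1* against dorsal skin went from -0.71 to -0.03. The number of arrays, 1 per condition, limits every value.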
